A study of Mus musculus with 2 samples.

Results

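The chemokines made by the endothelium of the lung were followed through 4 classes of endothelial cells, with and without melanoma cells in the circulation. They were given as 9 genes: Cxcl1, Cxcl2, Cxcl9, Cxcl10, Cxcl12, Cxcl16, Cx3cl1, Ccl2 and Ccl7. All 9 were among the 31053 genes of the count tables. Their RNA molecules were counted in each class as unique molecular identifiers (UMIs), short tags that mark single captured molecules.

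The libraries came from C57BL/6 mice of the genotype WT, which the methods of the study give as male. Lungs were taken 6 h after tail vein injection of PBS (control library) or of B16-F10 cells, 200000 for each mouse (metastatic library). B16-F10 is a skin melanoma line of the same strain, and here it reached the lungs by direct injection into the blood rather than from a primary tumor. The lungs were digested with collagenase, and cells were sorted on PECAM1, a surface protein of endothelial cells. The labels name no gate against leukocytes, and the methods of the study give none for its experiment with 2 mice per sample. Each group held 1 library of 2 pooled mice. The libraries therefore show no spread between mice, no test between the groups was possible, and the intervals below are 95% intervals of counting error only. They are too narrow where few barcodes hold most of a gene's UMIs, and the number of such barcodes is given beside those values.

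Cells were barcodes with 1000 to 5000 genes and under 20% mitochondrial UMIs, 7134 in the control and 6466 in the metastatic library. An aerocyte, the large capillary cell of gas exchange, needed 2 or more of Ednrb, Fibin and Tbx2. A vein cell needed 2 or more of Slc6a2, Car8 and Bst1, and an artery cell 2 or more of Gja5, Bmx and Fbln5. A general capillary cell (gCap), the cell that maintains the capillary bed, needed 2 or more of Gpihbp1, Aplnr, Kit and Lpl and none of the other classes. This gave 5020 control and 4519 metastatic gCap cells, 1364 and 1086 aerocytes, 247 and 304 vein cells and 63 and 59 artery cells. Genes that had not been used by the rule followed the names in part. Car4, Apln and Prx summed to 2037 and 1899 CPM (UMIs scaled to 1000000 UMIs of the class) in aerocytes against 292 and 242 CPM in gCap. Vwf, Nr2f2 and Vcam1 summed to 3319 and 3195 CPM in vein cells against 156 and 148 CPM in gCap, but also to 2010 and 1945 CPM in artery cells. Plvap, Cd93 and Ptprb, the check of gCap, summed to 6616 and 6223 CPM in gCap and to 2424 and 2401 CPM in aerocytes. They summed to 6871 and 6247 CPM in vein cells and to 5654 CPM in artery cells of each library, so they did not part gCap from vein or artery cells. Sox17, Hey1 and Efnb2 summed to 1468 and 1419 CPM in artery cells and to 986 and 1035 CPM in gCap, so this check parted artery from gCap less sharply. RNA of other cell types was not even between the libraries. Lymphatic markers summed to 44.6 CPM in control and 1552 CPM in metastatic artery cells, mural markers to 793 and 35.0 CPM there, and epithelial markers to 1685 and 992 CPM in gCap and to 124 and 3648 CPM in vein cells. Platelet markers summed to 180 and 278 CPM in gCap. Lymphoid markers summed to 14.1 and 26.5 CPM in gCap and to 7.33 and 18.5 CPM in aerocytes. The median UMI count per cell was 5950.5 and 6275 in gCap, and 16 barcodes were called in both libraries, 6.79 being the number for unrelated draws.

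Chemokines are small secreted or membrane-anchored proteins that guide leukocytes along a gradient and, on the inner wall of a vessel, make rolling leukocytes stop. Most are held on the endothelial surface by heparan sulfate and signal through G protein-coupled receptors. Cxcl1 and Cxcl2 attract neutrophils through CXCR2, Cxcl9 and Cxcl10 attract activated T and NK cells through CXCR3, and Ccl2 and Ccl7 attract monocytes through CCR2. Cxcl12 binds CXCR4 and retains or homes many cell types. Cxcl16 and Cx3cl1 are made as transmembrane proteins that tether cells carrying CXCR6 or CX3CR1 and that proteases of the ADAM family can shed.

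The promoters of 4 members are shown because the members differ in whether letters of known response elements stand close to the start. The RefSeq table used here matched promoter windows to 6 of the 9 members (GRCm38.p6), all but Cxcl16, Ccl2 and Ccl7. The windows run from 250 bases before to 50 after the start. They were searched on both strands for GGG, any 3 bases and TTCC, a form of the NF-kB element, and for GAAA, any 2 bases and GAAA, a form of the interferon-stimulated response element. The first was present in 5.56% and the second in 3.44% of 32851 mouse promoters. The stretches below run from 220 to 31 bases before the start, with matches in capitals.
Cxcl1 (chr5:90891025-90891214, plus strand): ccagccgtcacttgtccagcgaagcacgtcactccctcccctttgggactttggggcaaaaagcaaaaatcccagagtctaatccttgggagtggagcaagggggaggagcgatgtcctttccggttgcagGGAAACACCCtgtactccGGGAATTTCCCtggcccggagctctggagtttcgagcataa
Cxcl2 (chr5:90903679-90903868, plus strand): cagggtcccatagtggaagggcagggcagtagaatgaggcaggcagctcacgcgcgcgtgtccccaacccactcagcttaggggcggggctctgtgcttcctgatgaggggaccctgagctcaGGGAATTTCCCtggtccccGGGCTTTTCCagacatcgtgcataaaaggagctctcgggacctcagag
Cxcl10 (chr5:92348920-92349109, minus strand): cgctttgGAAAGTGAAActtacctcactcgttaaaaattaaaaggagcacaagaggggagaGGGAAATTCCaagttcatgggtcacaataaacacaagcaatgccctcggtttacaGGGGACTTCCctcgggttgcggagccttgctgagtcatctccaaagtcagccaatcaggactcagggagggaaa
Cxcl12 (chr6:117168315-117168504, plus strand): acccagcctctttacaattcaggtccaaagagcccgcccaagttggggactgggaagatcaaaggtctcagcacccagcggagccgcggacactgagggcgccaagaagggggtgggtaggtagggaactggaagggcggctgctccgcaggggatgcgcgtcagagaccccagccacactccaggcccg
The NF-kB letters were found in Cxcl1, Cxcl2 and Cxcl10. In Cxcl1 the run GGGAATTTCC began 71 bases before the start and GGAAACACCC, a separate match on the other strand, 89 bases before it. In Cxcl2 the same run GGGAATTTCC began 97 bases and GGGCTTTTCC 78 bases before the start. Each GGGAATTTCC overlaps a match on the other strand that begins 1 base later. Cxcl10 had GGGAAATTCC 159 bases and GGGGACTTCC 104 bases before its start, and it was the only member of the 6 with the interferon element, GAAAGTGAAA, 213 bases before its start. No match was found in the windows of Cxcl9, Cxcl12 and Cx3cl1. Cxcl1 and Cxcl2 are neighbors on chromosome 5 (90891241 to 90893115 and 90903871 to 90905938, plus strand, GRCm38), as are Cxcl9 and Cxcl10 on its minus strand (92321347 to 92328079 and 92346638 to 92348889).

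Across the members, levels spanned a wide range, and most of the difference between the libraries lay in few of them. In gCap, 7 of the 9 members had at least 50 UMIs over both libraries, and 3 of these (Cxcl1, Cxcl10 and Cxcl16) were at least 1.5-fold higher in the metastatic library, against 4.46% of the 12165 genes with as many UMIs. Cxcl1 had only 29 control and 51 metastatic UMIs. Its log2 ratio was 0.019 when every class required 3 or more markers. Cxcl9 was at least 1.5-fold lower, against 2.55% of genes, but 93 of its 114 control UMIs lay in 1 barcode. When classes required 3 or more markers or were called after thinning, no member with at least 50 UMIs was lower past 1.5-fold. Cxcl9 then fell under 50 UMIs and was not counted, though its ratio stayed lower past 1.5-fold. In aerocytes 1 of 4 members (Cxcl10) was higher and none lower, against 3.99% and 1.87% of genes. In vein cells 3 of 5 (Cxcl2, Cxcl10 and Cxcl16) were higher and none lower, against 5.74% and 2.69%, but the 134 metastatic vein UMIs of Cxcl2 lay in 3 barcodes with the leukocyte gene Ptprc, and 0 of them remained without cells that held a myeloid or neutrophil marker UMI. In artery cells 1 of 3 (Cxcl16) was higher and none lower, against 6.95% and 5.43%. The median log2 ratio was 0.30 over the 7 gCap members and 0.022 over all genes, of which 95% lay between -0.59 and 0.77. The members were chosen with earlier results of these data known, so these counts only describe them.

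**Figure D1:**
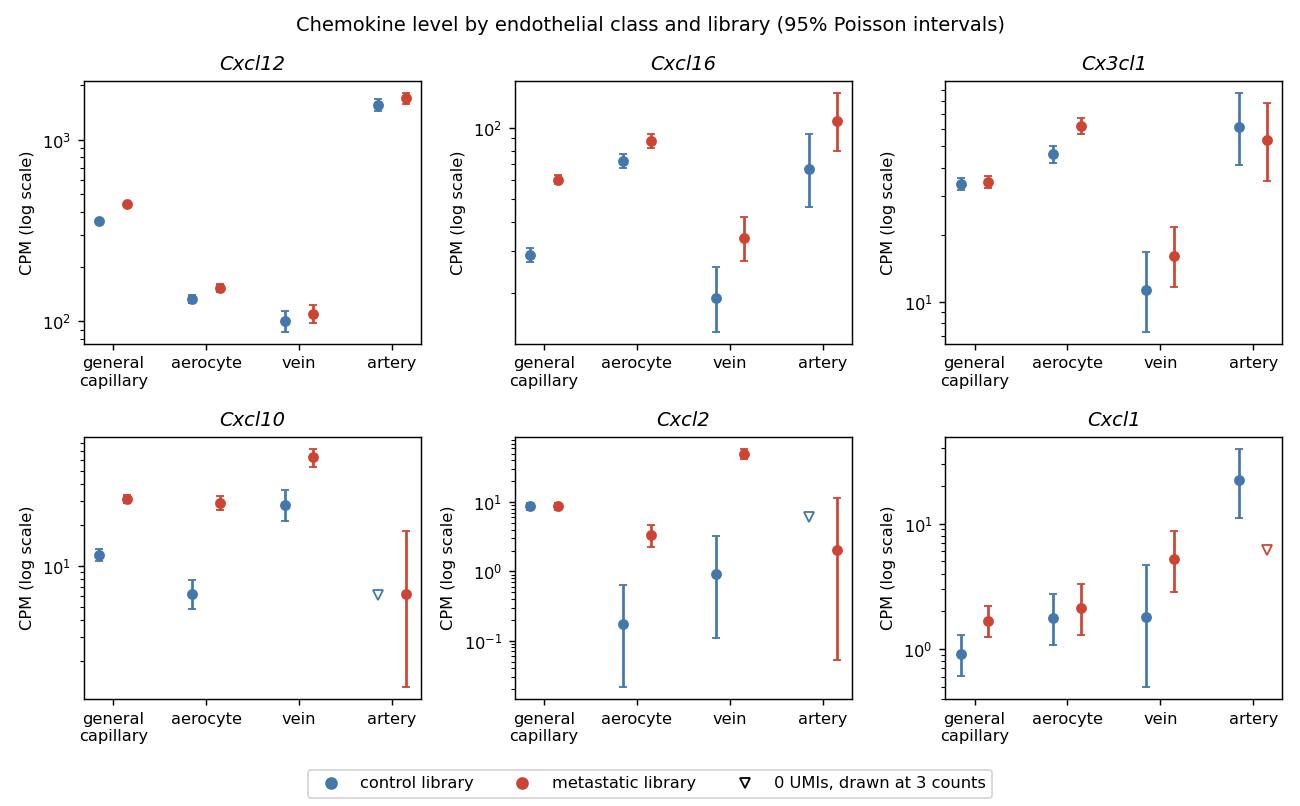
Level of 6 chemokines in CPM (log scale) in each endothelial class, control library in blue and metastatic library in red, with 95% Poisson intervals; open triangles stand for 0 UMIs and are drawn at the level of 3 counts. Cxcl12 is highest in artery cells in both libraries (1553 and 1688 CPM), and Cxcl16 in gCap goes from 28.9 to 60.3 CPM.

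**Figure D2:**
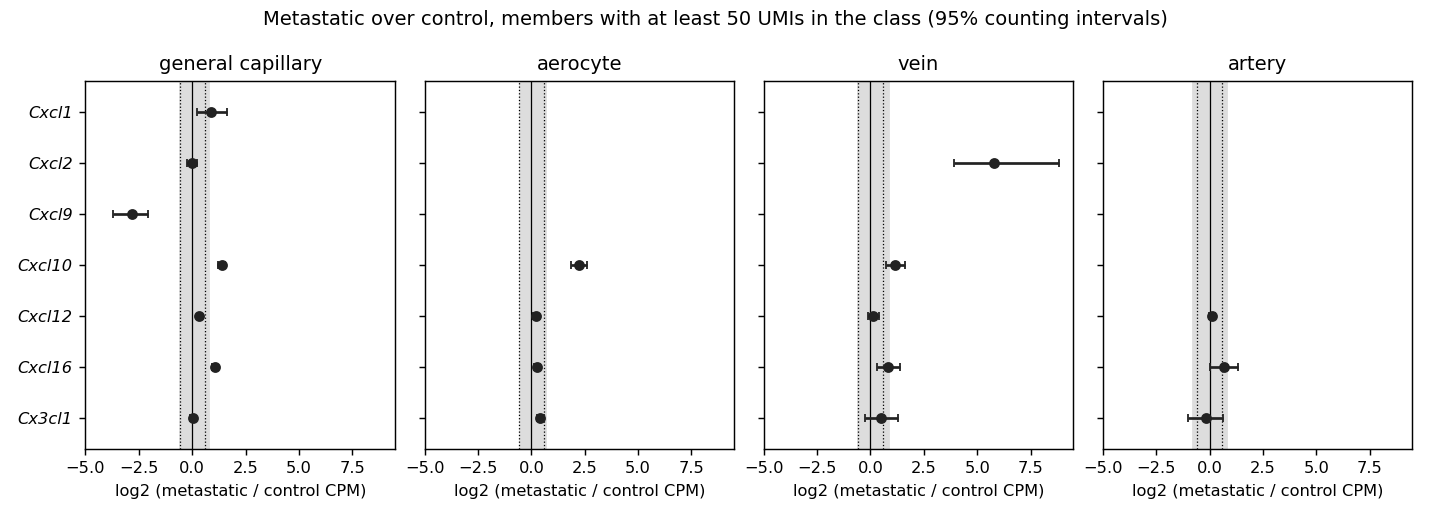
Log2 ratio of metastatic to control CPM for each member with at least 50 UMIs in the class, with 95% counting intervals; dotted lines mark 1.5-fold and the grey band holds 95% of all genes with as many UMIs. Cxcl10 lies right of the band in gCap, aerocytes and vein cells, as do Cxcl1 and Cxcl16 in gCap and Cxcl2 in vein cells. Cxcl9 lies left of it in gCap. The vein value of Cxcl2 and the gCap value of Cxcl9 rest on few barcodes, and the gCap value of Cxcl1 on 29 and 51 UMIs.

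Cxcl12 was the most abundant member in every class, and its level was highest in artery cells. Artery cells held 1553 CPM (1445 to 1667) in the control and 1688 CPM (1574 to 1807) in the metastatic library. At least 50% of these UMIs lay in 10 control and 7 metastatic artery cells, so intervals that involve artery cells are too narrow. Next came gCap with 357 CPM (351 to 364) and 441 CPM (434 to 449), then aerocytes with 133 and 153 CPM and vein cells with 101 and 110 CPM. The order was the same in both libraries, and each interval between neighbors excluded 0. Artery exceeded gCap 4.35-fold and 3.83-fold, gCap exceeded aerocytes 2.69-fold and 2.89-fold, and aerocytes exceeded vein cells 1.32-fold and 1.39-fold. Within gCap more cells were positive where artery genes were also detected. Among cells thinned at random to 2000 UMIs, Cxcl12 was seen in 29.2% (26.5 to 32.1) of control cells without a UMI of the 6 artery genes of the rule and check, in 37.6% (35.5 to 39.8) with 1 of them and in 43.2% (40.9 to 45.4) with 2 or more. The metastatic shares were 30.9%, 40.7% and 46.5%. This rise was not particular to Cxcl12. In the same control strata Cxcl16 was seen in 2.90%, 5.42% and 6.79% of cells and Cx3cl1 in 3.48%, 5.87% and 7.79%. The metastatic shares were 8.04%, 9.09% and 9.23% for Cxcl16 and 5.36%, 5.93% and 6.77% for Cx3cl1. Thinned artery cells were positive for Cxcl12 in 69.8% and 69.5%. Lymphoid barcodes, which served as background, were positive for it in 0 of 50 and 1 of 51, where the floor of 3 counts puts the limit for 0 of 50 at 6.00%.

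Between the libraries Cxcl12 differed little. In gCap the log2 ratio was 0.30 (0.27 to 0.34), which 86.7% of all genes stayed below, and the thinned share went from 38.0% (36.6 to 39.4) to 41.2% (39.8 to 42.7). The UMIs were spread over 3074 control and 2959 metastatic gCap cells, and 511 and 458 cells held the upper 50% of them. The ratio was 0.20 (0.10 to 0.31) in aerocytes, 0.13 (-0.12 to 0.39) in vein cells and 0.12 (-0.024 to 0.26) in artery cells. Without cells that held any fibroblast or mural marker UMI the artery ratio was 0.57 (0.40 to 0.75), from 1406 to 2091 CPM over 43 cells each. Both marker lists were higher in control artery cells (fibroblast markers 79.1 and 35.0 CPM, mural markers 793 and 35.0 CPM), they were left out together, and the part of each was not tested.

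Cxcl16 was higher in the metastatic gCap cells, and the difference was spread over many of them. It had 929 UMIs in 708 control gCap cells and 1828 UMIs in 993 metastatic gCap cells, that is, 28.9 CPM (27.1 to 30.9) and 60.3 CPM (57.6 to 63.2). The log2 ratio was 1.06 (0.95 to 1.18), and 98.9% of genes lay below it. More cells were positive, and the mean per positive cell was higher. The thinned share went from 5.42% (4.80 to 6.09) to 8.94% (8.12 to 9.82), and the mean before thinning from 1.31 to 1.84 UMIs. Barcodes with 5 or more UMIs numbered 6 and 58, and the 50 barcodes with the most held 17.3% and 23.3% of the UMIs. No single barcode carried this, since the most held by 1 barcode was 6 and 33 UMIs and the ratio without these barcodes was 1.04. It was 1.08 without cells that held a myeloid or neutrophil marker UMI and 0.998 without cells that held a fibroblast or mural one. Lymphoid barcodes had no Cxcl16 UMI in either library after thinning (0 of 50 and 0 of 51), with median depths of 4737 and 4675 UMIs against 5990 and 6314 UMIs in the gCap cells thinned.

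The Cxcl16 difference was smaller in aerocytes, while the intervals of vein and artery cells were wide and held the gCap value. Aerocytes had 72.1 CPM (67.2 to 77.2) and 87.7 CPM (81.8 to 93.9), a log2 ratio of 0.28 (0.14 to 0.42), an interval that did not overlap that of gCap, although the difference between the classes was not itself tested. The excess of aerocytes over gCap was accordingly 1.32 (1.18 to 1.45) on the log2 scale in the control and 0.54 (0.42 to 0.66) in the metastatic library. Vein cells had the lowest level, 19.0 CPM (13.7 to 25.7) and 34.0 CPM (27.4 to 41.8), with a ratio of 0.84 (0.29 to 1.40), and the log2 ratio of the thinned shares was 0.87 (-0.40 to 2.28) there and 0.72 (0.50 to 0.95) in gCap. Artery cells had 66.9 and 107 CPM, a ratio of 0.68 (0.019 to 1.35) that turned to -0.29 (-1.68 to 1.02) over 12 and 7 cells when every class required 3 or more markers. Artery cells and aerocytes did not differ beyond counting error in either library (log2 0.11, -0.40 to 0.65, aerocytes higher in the control, and 0.29, -0.15 to 0.69, artery higher in the metastatic library).

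Metastatic Cxcl16 was highest in the gCap cells with the most NF-kB regulators detected, a split made after the data had been seen, as were those by artery and interferon genes. NF-kB is the transcription factor family behind much of the endothelial response to cytokines. In thinned control gCap cells Cxcl16 was seen in 3.36% (1.46 to 6.52) with no such gene, 5.95% with 1, 4.74% (3.78 to 5.86) with 2 and 6.02% (4.47 to 7.90) with 3 or more of 14. In metastatic cells the shares were 8.53% (5.60 to 12.3), 7.15% (5.98 to 8.47), 8.17% (6.82 to 9.70) and 13.5% (11.4 to 15.8). Cxcl16 UMIs per 1000 thinned cells were 62.7 and 210 in the stratum with 3 or more, and 69.0 and 79.0 in the stratum with 1. Cx3cl1, counted in the same strata, was seen in 5.88%, 6.17%, 5.44% and 7.39% of control cells. Its metastatic shares were 5.12%, 5.36%, 6.81% and 6.94%, and the intervals overlapped within each library. A higher metastatic share with 3 or more regulators was not particular to Cxcl16. The metastatic Cxcl10 share was 0.341% with none and 3.62% with 3 or more.

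**Figure D3:**
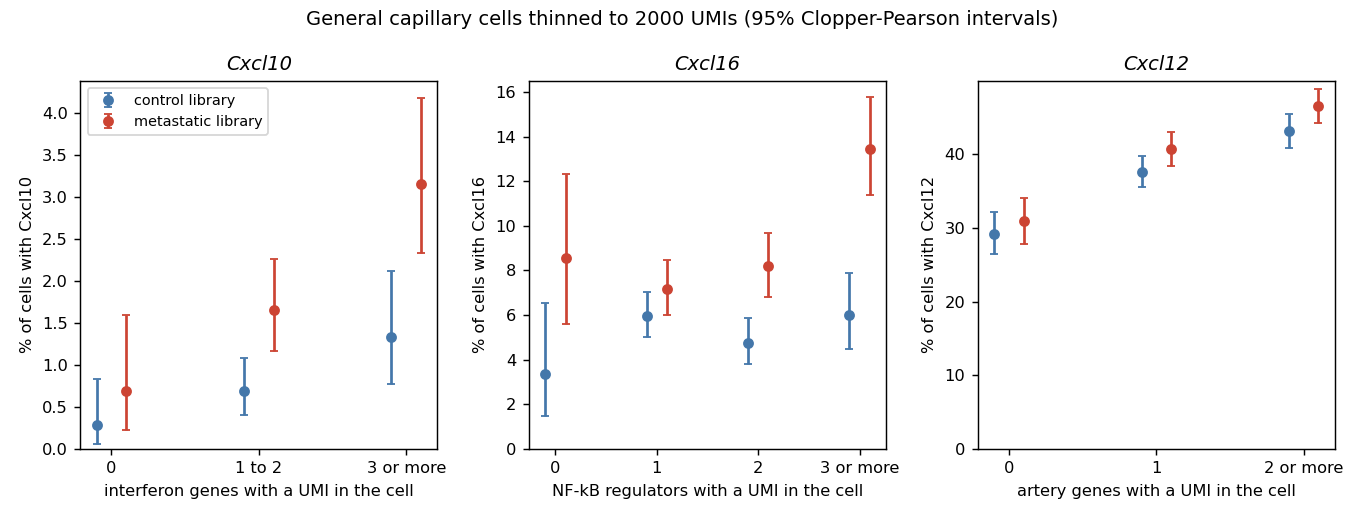
Share of thinned gCap cells with a UMI of Cxcl10, Cxcl16 or Cxcl12 by the number of interferon genes, NF-kB regulators or artery genes detected in the same cell, with 95% Clopper-Pearson intervals, control in blue and metastatic in red. The metastatic Cxcl16 share is highest with 3 or more NF-kB regulators (13.5%), while the control shares stay between 3.36% and 6.02%.

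Cx3cl1, the other membrane-bound member, did not follow Cxcl16. In gCap it had 1089 UMIs in 849 control cells and 1045 UMIs in 757 metastatic cells, 33.9 CPM (31.9 to 36.0) and 34.5 CPM (32.4 to 36.7). The log2 ratio was 0.024 with an interval of -0.099 to 0.15, which bounds counting error at this depth and not the spread between mice. The thinned shares were 6.10% (5.45 to 6.81) and 6.16% (5.48 to 6.91). In aerocytes, in contrast, Cx3cl1 went from 46.1 CPM (42.2 to 50.2) to 61.8 CPM (56.9 to 67.0). That log2 ratio, 0.42 (0.25 to 0.60), did not overlap the gCap interval (the difference between the classes was again not tested), and the thinned share went from 7.75% (6.39 to 9.31) to 11.5% (9.61 to 13.5). Artery cells held 60.8 and 53.5 CPM (ratio -0.19, with an upper bound of 0.62) and vein cells 11.3 and 16.1 CPM (ratio 0.50, -0.24 to 1.28). Artery and aerocyte levels were not parted, both lay above gCap, and gCap lay above vein cells 2.99-fold and 2.15-fold. Cells with Cxcl16 held Cx3cl1 at a higher share than the rest in both libraries, a difference that was not tested. Among thinned gCap cells Cx3cl1 was seen in 8.96% of the 268 Cxcl16-positive and 5.94% of the other control cells, and in 14.5% of the 399 Cxcl16-positive and 5.34% of the other metastatic cells.

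Cxcl10 was a rare but strong transcript, and its summed level was higher in the metastatic library in gCap, aerocytes and vein cells. In gCap 384 UMIs in 70 cells became 944 UMIs in 174 cells, 12.0 CPM (10.8 to 13.2) and 31.2 CPM (29.2 to 33.2), a log2 ratio of 1.38 (1.21 to 1.56). The counting interval is too narrow here, since 1 barcode held 192 of the control and 1 held 196 of the metastatic UMIs. Without these barcodes the ratio was 2.05, and without the cells that held any fibroblast or mural marker UMI it was 0.65 (0.45 to 0.85). The number of positive cells moved less. It was 1.39% and 3.85% of gCap cells, 0.768% (0.544 to 1.05) and 2.00% (1.60 to 2.45) after thinning, and 1.29% and 3.60% without the fibroblast or mural marker cells. Thinned lymphoid barcodes had none (0 of 50 and 0 of 51).

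In aerocytes 70 Cxcl10 UMIs in 13 cells became 272 UMIs in 50 cells, 6.18 CPM (4.82 to 7.81) and 29.0 CPM (25.6 to 32.6), a ratio of 2.23 (1.84 to 2.63). These intervals are too narrow, since 3 barcodes in each library held at least 50% of the UMIs. The top 2 held 16 and 15 of the control and 59 and 57 of the metastatic UMIs. When every class required 3 or more markers the aerocyte ratio was 0.26 (-0.25 to 0.76), with 70 and 67 UMIs in 13 and 28 cells, while the positive cells still numbered 1.32% and 3.71%. Vein cells held 62 UMIs in 9 cells and 169 UMIs in 17 cells, 28.1 CPM (21.5 to 36.0) and 63.2 CPM (54.0 to 73.4), the highest level of the classes, with a ratio of 1.17 (0.74 to 1.61). That interval is too narrow, since 2 barcodes held 27 and 14 of the control and 57 and 35 of the metastatic UMIs, and the log2 ratio of the thinned shares of positive vein cells was 1.08 with an interval of -0.50 to 2.92. Without cells with a myeloid or neutrophil marker UMI the control vein count was 31 and the ratio 2.21 (1.65 to 2.81). Artery cells held 0 and 3 UMIs, at or under the floor of 3 counts.

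The cells with most Cxcl10 were mostly cells with RNA of several interferon genes. Of the gCap barcodes with 5 or more Cxcl10 UMIs, which held 74.0% and 74.8% of these UMIs, 9 of 10 in the control and 35 of 37 in the metastatic library had 3 or more of 14 interferon genes, against 64.1% and 74.8% of all gCap cells, and 0 had 2 or more neutrophil or myeloid markers. After thinning, Cxcl10 was seen in 0.286% (0.059 to 0.83) of control cells with no interferon gene, 0.687% (0.41 to 1.08) with 1 or 2 and 1.33% (0.78 to 2.12) with 3 or more. The metastatic shares were 0.686% (0.22 to 1.59), 1.65% (1.16 to 2.27) and 3.16% (2.33 to 4.18). A rise in metastatic cells was not particular to interferon genes. With 0, 1, 2 and 3 or more NF-kB regulators the metastatic Cxcl10 shares were 0.341%, 1.44%, 1.91% and 3.62%. The control shares were 1.26%, 0.590%, 0.820% and 1.00%. Of the 38 Cxcl10-positive control cells 7 held Cx3cl1 (18.4%, against 6.01% of the other cells), and of the 89 metastatic ones 10 did (11.2% against 6.06%). Cxcl16 was seen in 1 of the 38 (2.63% against 5.44%) and in 15 of the 89 (16.9% against 8.78%).

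Cxcl9, which shares its receptor with Cxcl10, could not be compared. The control gCap cells held 114 UMIs, of which 93 came from 1 barcode and 105 from 2, and the metastatic cells held 15 UMIs. The positive cells numbered 9 and 14, so the log2 ratio of -2.84 (-3.73 to -2.06) was set by 1 barcode, and without it the ratio was -0.61. Aerocytes held 15 and 1 UMIs, 12 of the 15 in 1 barcode, vein cells 0 and 1, and artery cells none.

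The neutrophil attractants were scarce in cells free of leukocyte RNA. Cxcl2 had 280 and 264 UMIs in gCap, 8.72 CPM in each library, with a log2 interval of -0.25 to 0.25. Of these, 87.5% and 78.0% lay in 8 and 7 barcodes with 5 or more UMIs. All 8 control and 5 of the 7 metastatic barcodes held Ptprc, the gene of the leukocyte antigen CD45, which 1.33% and 2.21% of all gCap cells did, and 6 and 5 of them had 2 or more neutrophil or myeloid markers. Without cells that held any myeloid or neutrophil marker UMI, 32 and 61 UMIs remained (1.07 and 2.12 CPM), a ratio of 0.99 (0.35 to 1.65). In vein cells Cxcl2 went from 2 to 134 UMIs, 0.907 and 50.1 CPM. The 134 UMIs lay in 3 barcodes, 64 of them in 1, all 3 with Ptprc, and 0 remained without the myeloid or neutrophil marker cells. In aerocytes 24 of the 31 metastatic UMIs lay in 1 barcode with 2 or more neutrophil and myeloid markers. Of the myeloid barcodes, which carried few endothelial markers and of which 5 in each library were also gCap, 45.9% of 37 and 37.1% of 35 were positive after thinning.

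Cxcl1 had 29 UMIs in 16 control and 51 UMIs in 30 metastatic gCap cells, 0.903 CPM (0.605 to 1.30) and 1.68 CPM (1.25 to 2.21), a log2 ratio of 0.90 (0.21 to 1.61). It was 0.019 (-0.78 to 0.81), from 30 and 28 UMIs, when every class required 3 or more markers, which also lets into gCap some cells that the rule puts in other classes. Aerocytes held 20 UMIs in each library, 16 and 11 of them in 1 barcode, and vein cells 4 and 14. Artery cells held 11 and 0 UMIs, at least 3.62-fold lower in the metastatic library against a floor of 3 counts for the library, with 8 of the 11 in 1 barcode.

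The monocyte attractants were near the limit of detection. Ccl2 had 4 and 7 UMIs and Ccl7 3 and 1 UMIs in gCap, where 3 counts correspond to 0.09 and 0.10 CPM, and neither could be compared at this depth. Ccl2 reached 25 UMIs in 4 metastatic vein cells, 9.34 CPM (6.05 to 13.8), and 0 in the control, at least 6.87-fold higher against the floor, with 19 of the 25 in 1 barcode.

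**Figure D4:**
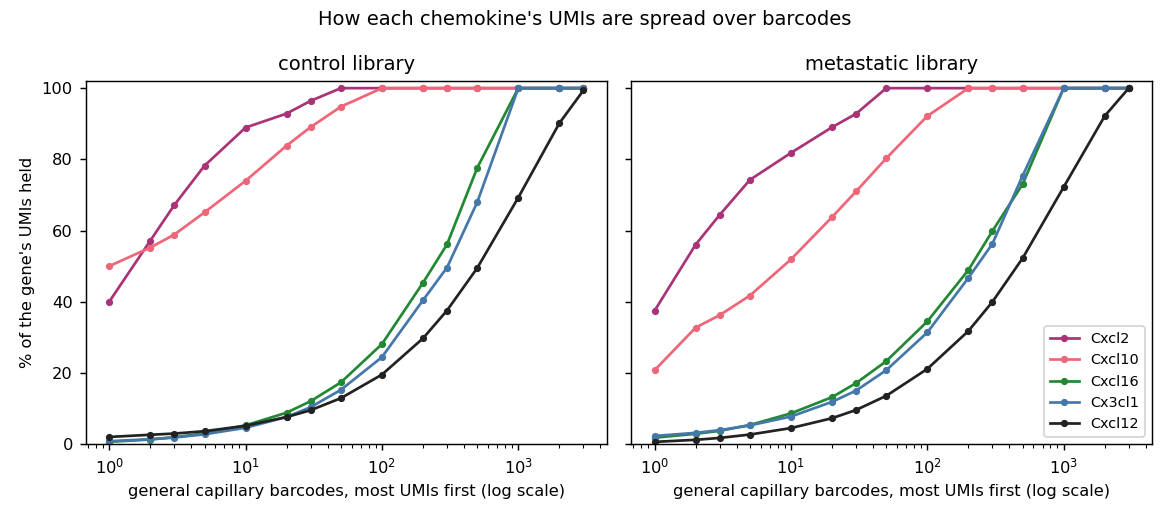
Share of each chemokine's UMIs (%) held by the gCap barcodes with the most of it, against the number of these barcodes (log scale), for the control library (left) and the metastatic library (right). The curves of Cxcl2 and Cxcl10 start high, with 192 of 384 control Cxcl10 UMIs in 1 barcode, while those of Cxcl12, Cxcl16 and Cx3cl1 rise over many cells.

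The genes that surround the members in their pathway were counted in gCap in the same way, with 4.46% of all genes at least 1.5-fold higher and 2.55% lower. Of 14 NF-kB regulators, 7 were at least 1.5-fold higher, none was lower and the median log2 ratio was 0.52. They included the family members Relb (0.87, 0.73 to 1.01) and Nfkb2 (1.08, 0.88 to 1.28), the coactivator Bcl3 (1.44, 1.29 to 1.59) and Tnfaip3, which ends the signal (0.93, 0.72 to 1.14). These 4 were singled out after their values were seen, and Bcl3 was also picked by the study from data with these libraries among them. The most abundant regulator, the inhibitor Nfkbia, had a ratio of -0.079 (-0.099 to -0.059), followed by Nfkb1 (0.11), Rela (0.31) and Nfkbiz (0.30). In aerocytes 4 of 13 were higher (median 0.38) and in vein cells 4 of 12 (median 0.20). Of 14 interferon genes 3 were at least 1.5-fold higher in gCap, all 14 had a ratio above 0 and the median was 0.42. The GTPases Gbp2 (0.76, 0.69 to 0.84) and Iigp1 (0.26), the transcription factor Irf1 (0.29) and the ubiquitin-like Isg15 (0.51) had the most UMIs. In aerocytes 4 and in vein cells 5 of 14 were higher, with medians of 0.49 and 0.47.

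Receptors and scavengers, which bind or clear chemokines, had 8 members with enough UMIs in gCap, 3 of them higher, none lower, with a median of 0.44. Those with the most UMIs were the presenting receptor Ccrl2 (0.096), the scavengers Ackr2 (-0.11) and Ackr3 (0.56, 0.46 to 0.67), the latter a second receptor of Cxcl12, and Ackr4 (0.75, 0.57 to 0.92). Cxcr4, the signaling receptor of Cxcl12, went from 9.72 to 20.1 CPM in gCap (1.05, 0.85 to 1.25) and from 3.36 to 11.9 CPM in aerocytes (1.83, 1.29 to 2.40), and was singled out after its values were seen. The lymphoid markers given above were also higher in metastatic gCap and aerocytes, and the part of lymphoid RNA in the Cxcr4 values was not tested. Cxcr2, the receptor of Cxcl1 and Cxcl2, had 39 and 25 UMIs in gCap and is also one of the neutrophil markers. Of the 9 shedding proteases and presenters 1 was higher, none was lower, and the median was 0.11. Those with the most UMIs were the peptidase Dpp4 (-0.064), which trims chemokines, Adam10 (0.043, -0.033 to 0.12), which sheds Cxcl16 and Cx3cl1, the heparan sulfate carrier Sdc3 (0.11) and Ndst1 (0.41), an enzyme of heparan sulfate synthesis. Sdc4 (0.73, 0.61 to 0.85), the one past 1.5-fold, Adam17 (0.17, 0.051 to 0.28), the other shedding protease, and Cxcr2 were named after their values were seen. None of the 11 cytokine receptors and none of the 10 immediate early genes passed 1.5-fold in gCap, with medians of 0.19 and 0.0076.

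Of the 4 endothelial adhesion genes that NF-kB is known to induce, 2 were at least 1.5-fold higher in gCap, and the median was 0.71. Icam1, the most abundant, went from 192 to 281 CPM (0.55, 0.50 to 0.60) and Vcam1 from 9.63 to 17.5 CPM (0.86, 0.66 to 1.07). Sele, E-selectin, went from 12 to 268 UMIs (4.56, 3.74 to 5.54), and Selp from 70 to 79 UMIs (0.26, -0.22 to 0.74). Among the other chemokine ligands 26 of 27 genes were listed and 13 had enough UMIs in gCap, 2 of them higher and 3 lower, with a median of -0.058. The leaders were Pf4 (0.67, 0.60 to 0.74) and Ppbp (0.58, 0.48 to 0.67), both platelet genes that are among the platelet markers given above, then the lung epithelial Cxcl15 (-0.14) and Ccl6 (-0.16).

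**Figure D5:**
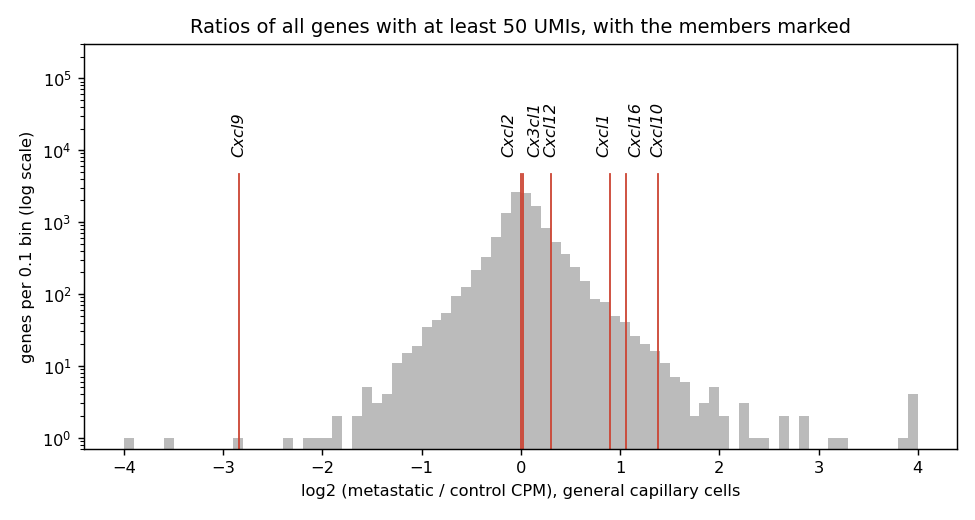
Log2 ratio of metastatic to control CPM in gCap for all 12165 genes with at least 50 UMIs (x axis, values beyond 4 in either direction drawn at 4, infinite ratios left out), as the number of genes per bin (log scale), with the 7 members that had enough UMIs marked by red lines. Cxcl10 (1.38) and Cxcl16 (1.06) lie above 98.9% of genes, and Cx3cl1 (0.024) and Cxcl2 lie in the middle of the distribution.

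Patterns most like those of the members were sought over the 8 class and library profiles, by Pearson's r of log2(CPM + 1) among 9506 genes. For Cxcl10 these were Igtp (0.996), Tubb5 (0.980) and Irf9 (0.979). For Cxcl12 they were Smad7 (0.995), Ktn1 (0.990) and Pcsk5 (0.986). For Cxcl16 they were Mrto4 (0.971), Med27 (0.960) and Wdr36 (0.958), and for Cx3cl1 Nsun6 (0.988), Pomt2 (0.986) and Inpp5f (0.979). Cytip (0.966), Vamp1 (0.965) and Cpm (0.963) were nearest to Cxcl2, whose vein and aerocyte values rest on few barcodes. The gCap, aerocyte and vein values of Cxcl10 also rest on few barcodes, and its artery values on 0 and 3 UMIs. With 8 profiles from 2 libraries between 58 and 144 genes reached an r above 0.9 for Cxcl10, Cxcl12, Cxcl16 and Cx3cl1, and the profiles of a library share its depth and its free RNA.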

How the data were processed

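Lung cells sorted on PECAM1 were profiled with the 10x Genomics 3′ kit, 1 library per group. The deposited counts are raw UMI counts per gene and barcode, made by the authors with Cell Ranger on the mm10 build, with no cell calling or normalization. Per the file headers, version 3.1.0 wrote the matrices. The libraries held 67929614 and 64733724 UMIs.

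The cell filter and classes are given above. Barcodes in no class or in several classes were left out of them, and doublets were kept in the main values. UMIs were summed per class and given as CPM with exact Poisson intervals. Ratios carry exact conditional binomial intervals, and shares carry exact Clopper-Pearson intervals, all at 95%. The limit given for a count of 0 is 3 counts of the total, not that interval. For shares each cell was thinned to 2000 UMIs, and shallower cells were left out (73 control and 58 metastatic gCap cells). The functions were tested on simulated data. Analyses used Python 3.11.15, scipy 1.17.1, scanpy 1.11.5 and edgeR 4.0.16, the last for a scaling factor only. Alternatives covered cell filters, class rules, doublets, marker-positive cells, scaling and free RNA.

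The 9 members and all lists were chosen with earlier results of these data known. Genes named from a list are those with the most UMIs in gCap, up to 4, others being marked as named after their values were seen, and the 3 nearest in pattern needed 200 UMIs and 10 CPM. Positions are from GENCODE M21 and promoters from RefSeq. Ccl19 and Ccl21a have near-identical copies, and the first listed copy was used. Cxcl10 and Cxcl16 overlap Art3 and Zmynd15 on the other strand (108 and 264 UMIs in gCap).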

Additional observations from a re-analysis of the deposited data

Results flagged for a closer look

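Barcodes that met no class (394 in the control and 466 in the metastatic library) entered no comparison between the libraries, though 50 lymphoid barcodes of each library and 32 control and 29 metastatic myeloid barcodes among them gave background shares. In these barcodes 6 members had a higher level in the metastatic library, with intervals that did not overlap. Cxcl9 was at 0 and 92.9 CPM, and 228 of its 230 metastatic UMIs lay in 1 barcode. Cxcl1 was at 8.97 and 32.3 CPM, with 42 of the 80 metastatic UMIs in 1 barcode, and Cxcl10 at 3.78 and 21.4 CPM, with 35 of 53 UMIs in 1 barcode. Cxcl16 was at 32.6 and 99.4 CPM, in 29 and 73 barcodes. Cx3cl1 was at 10.4 and 27.9 CPM, in 19 and 43 barcodes. Cxcl12 was at 230.3 and 315 CPM, in 119 and 159 barcodes. Ptprc was detected in 32.7% and 29.6% of the barcodes in no class, and its part in these values was not tested.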

How the results depend on the processing

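Of the 218 values recomputed for the gCap ratios, counts, class levels and shares, 177 stayed within their counting interval or, for a count, within 1.5 times. Over its alternatives the gCap log2 ratio of Cxcl16 ranged from 0.89 to 1.08 and that of Cxcl10 from 0.65 to 2.22, and the share ratios of Cxcl10, Cxcl12, Cxcl16 and Cx3cl1 stayed within their intervals under both alternatives run for them. The cause of the moves was not tested.

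With every class called from 3 or more markers, which also moves cells between classes, the gCap ratios were 0.019 for Cxcl1, 0.78 for Cxcl2, -1.03 for Cxcl9, 2.22 for Cxcl10, 0.34 for Cxcl12 and 0.94 for Cxcl16, the artery ratio of Cxcl16 was -0.29, and 0 members were lower past 1.5-fold. Levels relative to gCap (log2) were 2.56 for Cxcl12 in metastatic artery, 1.52 and 0.71 for Cxcl16 in aerocytes, 1.03 for Cx3cl1 in metastatic aerocytes, and 2.89 and 2.00 for Cxcl10 in veins. With classes called after thinning, the gCap ratios were 0.17 for Cxcl1, -1.24 for Cxcl9, 1.81 for Cxcl10, 0.25 for Cxcl12 and 0.89 for Cxcl16, and 0 members were lower. The levels were 1.92 and 1.72 for Cxcl12 in artery, 1.52 and 0.76 for Cxcl16 and 1.03 for metastatic Cx3cl1 in aerocytes, and 2.89 and 1.92 for Cxcl10 in veins. Without fibroblast or mural marker cells the gCap ratio of Cxcl10 was 0.65, and the levels were 1.96 and 2.23 for Cxcl12 in artery, 1.08 for metastatic Cx3cl1 in aerocytes, and 0.63 and 1.44 for Cxcl10 in veins. Without myeloid or neutrophil marker cells the gCap ratio of Cxcl2 was 0.99 and the control vein level of Cxcl10 was 0.25. With an endothelial gate the Cxcl2 ratio was 0.61. Without the barcode with the most UMIs, an alternative added after seeing the data as was leaving out lymphatic marker cells, the ratios were -0.61 for Cxcl9 and 2.05 for Cxcl10. With no minimum of UMIs 2 members were lower in gCap. After subtraction of free RNA the gCap ratios were 1.06 for Cxcl10, -0.025 for Cxcl12 and -0.29 for Cx3cl1. That profile held 5 and 9 UMIs of the members and was scaled to 31.7% and 13.4% of the gCap UMIs, so it measures them poorly.

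No paired analysis was possible because each group held 1 library. At this depth 3 counts correspond to 0.09 and 0.10 CPM in gCap but to 6.08 and 6.17 CPM in artery cells.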
